A study of Rattus norvegicus with 12 samples.

Results

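The genes described here are those of antigen presentation by the major histocompatibility complex (MHC) of the rat, which is called RT1. Members were all rows of the deposited gene table whose name begins with RT1-, together with B2m, Tap1, Tap2, Tapbp, Cd74, Ciita, Nlrc5, Rfx5, Rfxap, Rfxank, Erap1 and Calr. They made up 42 of the 30560 rows, 30 of them RT1 rows, and the RT1-S2 name stood on a pair of rows. Tapbpl and RT1-Ha matched no row by name. Of the members, 33 lay on chromosome 20. Their counts came to 0.138% of all counts.

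Total RNA of the retina was sequenced from 12 rats, 1 library per rat. In the NMDA group, 6 rats had received 2 µL of 20 mM NMDA into the vitreous of the eye, and in the PBS group 6 rats had received 2 µL of the buffer PBS by the same route. NMDA activates a class of glutamate receptors, and its injection overstimulates retinal neurons that carry them. The series title calls the rats a model of glaucoma, and the labels give no eye pressure. Strain, age, sex and the time between injection and collection are not given in the sources used here. Libraries are named by group and label number, NMDA 1 to NMDA 6 and PBS 1 to PBS 6.

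MHC class I molecules are found on nearly all nucleated cells and show peptides from the cell's own proteins to CD8 T cells and natural killer cells. Each consists of a heavy chain, encoded by one of many similar RT1 genes, and the constant partner beta-2 microglobulin. Class II molecules are pairs of an alpha and a beta chain that show peptides from the endosome to CD4 T cells, and they are made mainly by macrophages, dendritic cells and B cells. In the healthy retina class II is sparse and found mainly on scattered myeloid cells. Transcription of both classes runs through an array of short promoter elements, the X1, X2 and Y boxes, on which RFX, CREB and NF-Y proteins gather. The coactivator NLRC5 then acts at class I genes and the coactivator CIITA at class II genes.

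All 15 marker genes of retinal neurons were detected in both groups, so the label of the tissue held. Their summed level was lower with NMDA, at 34640 to 50130 CPM (counts scaled to a common total), against 49960 to 52740 CPM with PBS. Of the 15, 10 fell (66.7%, beside 17.5% of all genes tested) and none rose. Total counts per library ran from 16415611 to 34022023. A pair of libraries stood apart on these genes. PBS 5 had the highest summed class I level and the highest summed class II level of the PBS group. It was also the highest PBS library for markers of macrophages, dendritic cells, B cells, T cells, NK cells, neutrophils and endothelium. NMDA 4 had the highest class I and class II sums of the NMDA group. Results are therefore given with and without these libraries where their values move by much.

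Of the 33 members with enough counts to be tested, 19 changed between NMDA and PBS, which is 57.6%, beside 37.9% of all 16260 genes tested. A gene was called changed at an adjusted p under 0.05 (edgeR quasi-likelihood test, two-sided, Benjamini-Hochberg over all genes tested). Higher with NMDA were 17 members, or 51.5%, beside 20.4% of all genes. Lower were 2 members, RT1-M5 and Ciita, or 6.06%, beside 17.5% of all genes. The median log2 fold change (NMDA minus PBS) over the tested members was 0.75, beside 0.01 over all tested genes. For 10 members, or 30.3%, every NMDA library lay above every PBS library, beside 9.43% of all genes. The reverse order held for 1 member, RT1-M5, beside 8.66% of all genes. By role, 5 of 13 tested class I heavy chain genes rose and 1 fell. Among partner and loading genes of class I, 5 of 6 rose. Among class II chain genes 5 of 8 rose, and their median log2 fold change was 1.88. The invariant chain gene rose, and of the 5 regulators 1 rose and 1 fell.

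**Figure D1:**
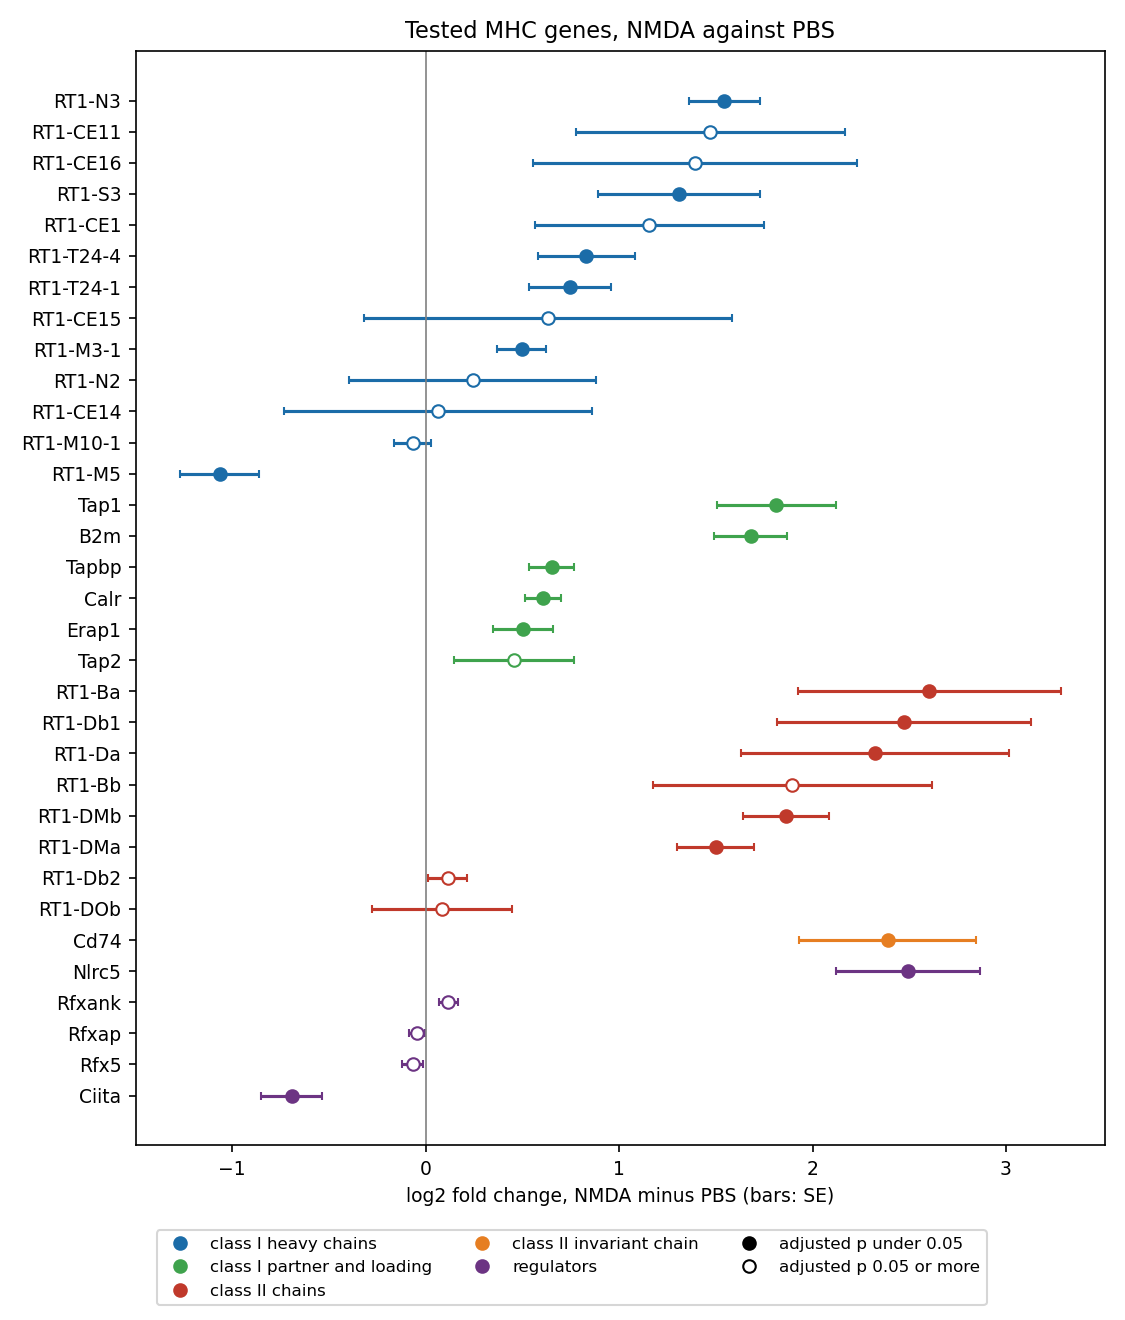
Log2 fold change (NMDA minus PBS) of the 33 tested members with its SE, grouped by role; filled points passed the adjusted threshold of 0.05 and open points did not. Cd74, Nlrc5 and several class II chains lie beyond 2, the CE copies of class I have wide bars, and RT1-M5 and Ciita lie below 0.

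Promoters of 6 members are printed because they hold the elements through which the MHC is known to be read, and because the members differ in what their RNA did. Each is the 250 bases before the start of the gene in RefSeq (GRCr8), 5′ to 3′ on the strand of the gene. The positions are chr20:4515165-4515414 (plus strand) for RT1-Da, chr20:4627524-4627773 (minus strand) for RT1-DOb and chr18:56526956-56527205 (plus strand) for Cd74. B2m lies at chr3:129549080-129549329 (plus strand), Tap1 at chr20:4668544-4668793 (minus strand) and RT1-S3 at chr20:2675278-2675527 (plus strand). The build behind the positions in the deposited table is not given in the sources used here, and the positions of the table and of RefSeq are not to be mixed. Capitals mark matches, on either strand and with overlapping matches merged, to the letters of 6 known elements. These were the Y box ATTGG, the X1 box CCNAGNNACNG, the core of the X2 box TGACG, the interferon-stimulated response element GAAANNGAAA, the GAS element TTCNNNGAA and the kappa B site GGGNNNTNCC.
RT1-Da: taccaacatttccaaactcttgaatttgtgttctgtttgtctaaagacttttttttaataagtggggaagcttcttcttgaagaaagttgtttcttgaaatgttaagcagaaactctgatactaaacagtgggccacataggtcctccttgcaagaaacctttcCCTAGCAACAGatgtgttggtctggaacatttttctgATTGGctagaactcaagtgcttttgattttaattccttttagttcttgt
RT1-DOb: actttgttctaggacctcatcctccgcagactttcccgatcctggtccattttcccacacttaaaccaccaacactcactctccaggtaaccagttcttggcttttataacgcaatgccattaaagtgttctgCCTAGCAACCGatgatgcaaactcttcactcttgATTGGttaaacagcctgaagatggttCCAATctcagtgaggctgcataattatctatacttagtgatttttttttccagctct
Cd74: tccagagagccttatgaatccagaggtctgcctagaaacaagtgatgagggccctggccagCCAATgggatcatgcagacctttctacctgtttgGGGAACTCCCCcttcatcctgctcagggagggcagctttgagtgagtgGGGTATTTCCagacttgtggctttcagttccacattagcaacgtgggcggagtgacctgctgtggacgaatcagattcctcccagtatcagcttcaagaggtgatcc
B2m: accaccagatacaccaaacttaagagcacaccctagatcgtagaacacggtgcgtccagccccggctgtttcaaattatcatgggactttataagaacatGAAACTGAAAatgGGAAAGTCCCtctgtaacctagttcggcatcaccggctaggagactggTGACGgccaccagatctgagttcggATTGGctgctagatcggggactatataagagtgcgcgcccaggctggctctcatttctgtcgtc
Tap1: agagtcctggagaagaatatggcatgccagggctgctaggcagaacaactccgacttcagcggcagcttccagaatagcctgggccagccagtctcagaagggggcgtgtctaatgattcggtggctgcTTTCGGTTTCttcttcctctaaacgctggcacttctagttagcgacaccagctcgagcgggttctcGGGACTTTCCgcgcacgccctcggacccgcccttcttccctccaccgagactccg
RT1-S3: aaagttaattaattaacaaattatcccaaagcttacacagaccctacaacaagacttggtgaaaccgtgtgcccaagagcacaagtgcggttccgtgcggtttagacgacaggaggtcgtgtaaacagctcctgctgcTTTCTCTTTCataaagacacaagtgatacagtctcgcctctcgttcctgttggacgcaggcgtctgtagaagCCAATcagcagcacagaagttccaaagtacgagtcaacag

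In the RT1-Da promoter, an X1 match began 86 bases before the start and a Y box match 49 bases before it. RT1-DOb held the same arrangement, with X1 at 117 bases and Y boxes at 83 and 57 bases. B2m held a response element match at 150 bases, a kappa B match at 137, an X2 match at 89 and a Y box at 64. Tap1 held a response element at 121 bases and a kappa B match at 55, and RT1-S3 a response element at 112 and a Y box at 40. Cd74 held a Y box at 189 bases and kappa B matches at 155, 154 and 107 bases, and no X1 match by these letters. Over all 33469 promoters of the same length, a Y box match stood in 34% and an X1 match in 4.17%. Of 34 member names with a promoter in the table, 23 had a Y box match and 6 an X1 match. All 6, which were Calr, RT1-M10-1, RT1-CE16, RT1-Da, RT1-Bb and RT1-DOb, also held a Y box match somewhere in the window, as 1.36% of all promoters do. The spacing varied: in RT1-Bb X1 lay at 97 bases and a Y box at 61, whereas in RT1-CE16 X1 lay at 229 bases on the other strand and the Y box at 12, and in Calr X1 at 167 and Y boxes at 218, 201 and 32. A response element match stood in 3.41% of all promoters and in 7 members, B2m, RT1-S2, RT1-N3, RT1-S3, Tap1, Tap2 and Tapbp. Kappa B matches stood in 14.3% of all promoters and 12 members, X2 matches in 18.2% and 7 members, and GAS matches in 7.67% and 1 member, RT1-M3-1. A match describes letters and shows no binding.

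Beta-2 microglobulin RNA rose. B2m (ENSRNOG00000017123, chromosome 3, 109095729 to 109101766) measured 254.6, 271 and 392.5 CPM in the lowest, median and highest NMDA library, against 63.4, 87.4 and 141 CPM with PBS. Every NMDA library lay above every PBS library, and PBS 5 was the highest of its group. The log2 fold change was 1.68 ± 0.19 (SE; adjusted p = 8.42e-05). In FPKM, which allows for gene length, B2m averaged 159 ± 34.5 with NMDA and 48.0 ± 13.6 with PBS (SD, n = 6 each).

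The transporter that carries peptides from the cytosol into the endoplasmic reticulum is a pair of TAP1 and TAP2, and the RNAs of the pair did not show the same values. Tap1 (ENSRNOG00000000457, chromosome 20, 4656263 to 4666901) had 13.8, 21.8 and 38.6 CPM with NMDA, against 2.98, 6.77 and 11.98 CPM with PBS. The groups did not overlap, and Tap1 rose by 1.81 ± 0.31 on the log2 scale (adjusted p = 0.000821). Tap2 (ENSRNOG00000000455, chromosome 20, 4636357 to 4650407) had 26.0, 34.8 and 48.7 CPM with NMDA, against 10.8, 28.4 and 40.3 CPM with PBS. Those groups overlapped, and the difference of 0.46 ± 0.31 did not pass (adjusted p = 0.274). The spread within PBS was wide for Tap2, since PBS 1 and PBS 2 lay at 12.97 and 10.8 CPM and the other 4 libraries between 26.4 and 40.3 CPM. Per length, Tap2 exceeded Tap1 in every library, by a FPKM ratio of 1.34 to 2.76 with NMDA and 2.99 to 7.19 with PBS. The ratio ranges of the groups did not overlap. The Tap1 row overlaps that of Psmb9, an immunoproteasome subunit whose log2 fold change was 1.97 ± 0.27 (adjusted p = 0.000195), and without strand information reads in the shared stretch cannot be assigned to either.

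The remaining loading genes rose by less. Tapbp, which encodes tapasin, the bridge between the transporter and the class I molecule, had 114, 126 and 164 CPM with NMDA, against 68.0, 84.7 and 103 CPM with PBS. Its log2 fold change was 0.65 ± 0.12 (adjusted p = 0.000989). The Tapbp row overlaps that of Rgl2, which averaged 140.6 CPM over all libraries, beside 108.02 CPM for Tapbp. Calr, which encodes the chaperone calreticulin, had 594, 715 and 767 CPM with NMDA, against 366, 449 and 561 CPM with PBS, a log2 fold change of 0.61 ± 0.09 (adjusted p = 0.000326). In both genes the groups did not overlap. Calr was the member with the highest level per length, at 255 ± 23.0 FPKM with NMDA and 162 ± 23.7 FPKM with PBS (SD, n = 6 each). Erap1, which encodes the aminopeptidase that trims peptides in the endoplasmic reticulum, had 41.9, 57.1 and 69.5 CPM with NMDA, against 26.3, 42.7 and 47.1 CPM with PBS. Its groups overlapped, and NMDA 1 was the single NMDA library within the PBS range. The log2 fold change of Erap1 was 0.50 ± 0.16 (adjusted p = 0.0229), and the call was lost without NMDA 5 (adjusted p = 0.0541) or without PBS 2 (adjusted p = 0.0508). Calreticulin also serves as a general chaperone, and its role is not limited to class I.

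**Figure D2:**
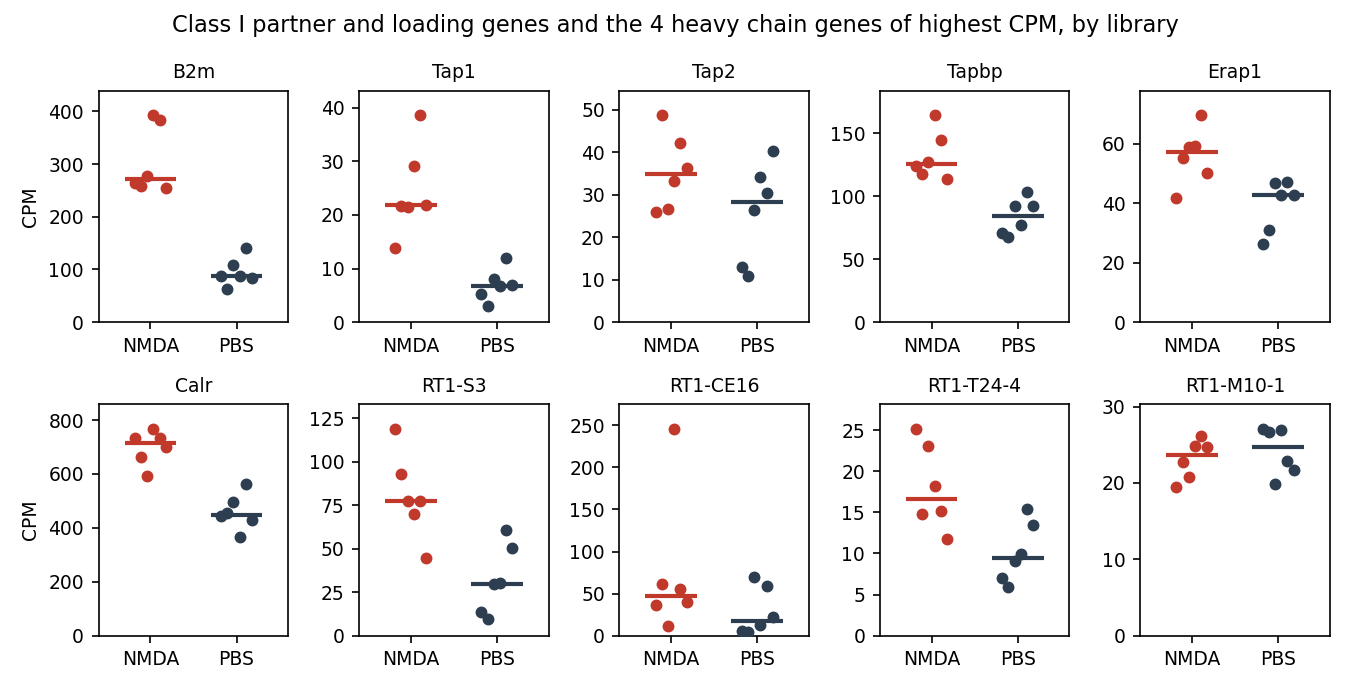
CPM of the 6 partner and loading genes and of the 4 class I heavy chain genes with the highest mean CPM, one point per library, NMDA left and PBS right in each panel, lines at the group medians. B2m, Tap1, Tapbp and Calr separate the groups, whereas Tap2 and RT1-M10-1 overlap and RT1-CE16 has 1 NMDA library at 245.8 CPM.

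Heavy chain genes of class I were measured in 21 rows, and reads from such similar copies may be split between rows in ways that the deposited counts do not show. Of these rows, 8 had too few counts to test. Summed over all 21 rows, class I heavy chain RNA came to 161.2, 219.4 and 435.7 CPM in the lowest, median and highest NMDA library, against 77.3, 115.6 and 191.2 CPM with PBS. The sum can lose no reads from 1 of these rows to another. It can lose reads to class I copies without an RT1- name, since 6514 of all rows had no gene name, and is then a part of class I. On the log2 scale the ratio of the group means of the sum was 0.98, and it ran from 0.74 without NMDA 4 to 1.14 without PBS 5. NMDA 6, the lowest NMDA library, lay at 161.2 CPM, above PBS 3 at 159.7 CPM and below PBS 5 at 191.2 CPM, so the groups overlapped through PBS 5 alone.

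Which copy carried the counts differed from animal to animal within both groups. RT1-S3 took 16.0% to 49.8% of the class I counts with NMDA and 12.4% to 40.5% with PBS. RT1-CE16 took 5.59% to 56.4% with NMDA and 4.92% to 43.7% with PBS, highest in NMDA 4 and in PBS 3. RT1-M10-1 took 5.70% to 15.3% with NMDA and 11.9% to 34.4% with PBS. These shares are of counts, not of molecules. The RT1-M10-1 row overlaps those of Trim39 and Rpp21, the higher of which averaged 36.9 CPM, so its share may hold their reads. No class I sum without RT1-M10-1 is given here.

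**Figure D3:**
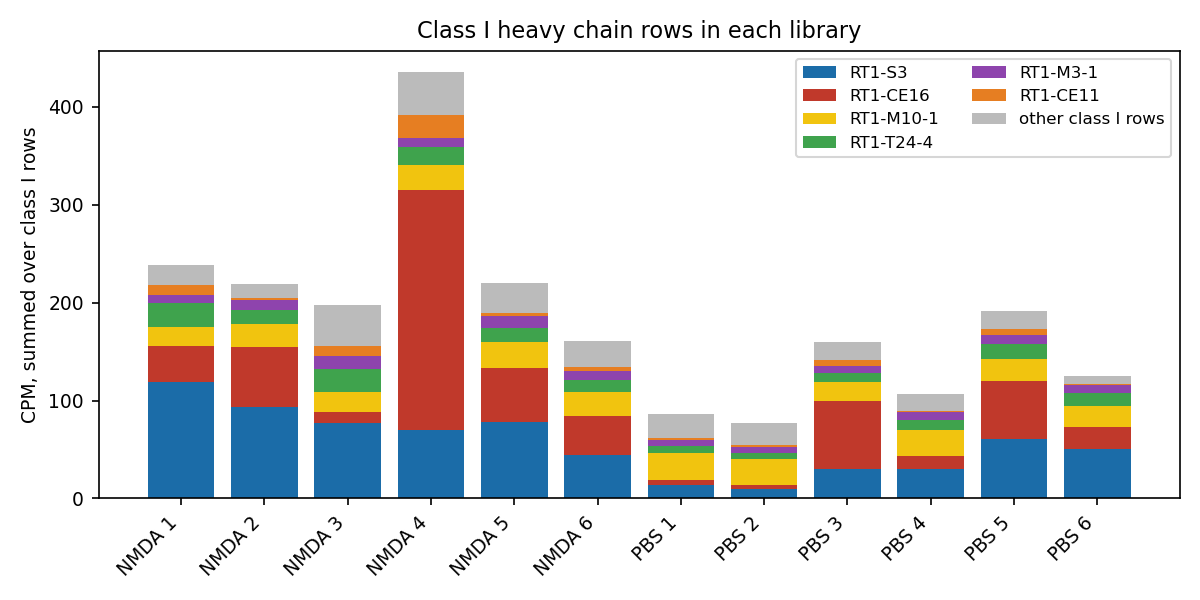
Class I heavy chain counts of each library as CPM, stacked by row, NMDA libraries left of PBS libraries. RT1-CE16 makes up 56.4% of the bar in NMDA 4 and 5.59% in NMDA 3, and RT1-S3 49.8% in NMDA 1.

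RT1-S3 (ENSRNOG00000000777, chromosome 20, 2670709 to 2675411), the heavy chain row with the highest mean CPM, had 44.7, 77.5 and 119 CPM with NMDA, against 9.61, 30.0 and 60.8 CPM with PBS. All NMDA libraries but NMDA 6 lay above the highest PBS library, PBS 5. The log2 fold change was 1.31 ± 0.42 (adjusted p = 0.0282), and the call was lost without NMDA 1 (adjusted p = 0.0536), without NMDA 2 (adjusted p = 0.0508) or without PBS 4 (adjusted p = 0.0525). RT1-CE16 (ENSRNOG00000065254, chromosome 20, 3257123 to 3279563) had 11.0, 47.5 and 245.8 CPM with NMDA, against 3.80, 17.3 and 69.9 CPM with PBS. Its difference of 1.39 ± 0.84 did not pass (adjusted p = 0.219), and without NMDA 4 it was 0.52 (adjusted p = 0.639). RT1-CE16 shares its position with RT1-CE15.

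RT1-T24-4 (ENSRNOG00000042905, chromosome 20, 2684515 to 2692511) had 11.8, 16.7 and 25.1 CPM with NMDA, against 5.96, 9.47 and 15.4 CPM with PBS. It rose by 0.83 ± 0.25 on the log2 scale (adjusted p = 0.0203), with 3 of the 6 NMDA libraries above the highest PBS library. RT1-M10-1 (ENSRNOG00000062809, chromosome 20, 1986788 to 2020117) had 19.4, 23.7 and 26.1 CPM with NMDA, against 19.8, 24.7 and 27.1 CPM with PBS. The groups coincided in range, and the log2 fold change was -0.07 ± 0.10 (adjusted p = 0.629). Its row overlaps those of Trim39 and Rpp21.

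Among the remaining tested heavy chain rows, RT1-N3 separated the groups, with 6.42 to 10.4 CPM with NMDA, against 1.55 to 3.49 CPM with PBS. RT1-N3 rose by 1.54 ± 0.18 on the log2 scale (adjusted p = 8.41e-05), the smallest adjusted p of the heavy chain rows. RT1-T24-1 rose by 0.75 ± 0.21 (adjusted p = 0.0137) and RT1-M3-1 by 0.50 ± 0.13 (adjusted p = 0.00808). RT1-M5 was the heavy chain row that fell, by 1.06 ± 0.20 on the log2 scale (adjusted p = 0.0014). Its level was low, at 0.294 to 0.465 CPM with NMDA and 0.555 to 0.990 CPM with PBS, and the groups did not overlap. Not called were RT1-CE1 (1.16 ± 0.59, adjusted p = 0.148), RT1-CE11 (1.47 ± 0.69, adjusted p = 0.118), RT1-CE14 (0.07 ± 0.80, adjusted p = 0.961), RT1-CE15 (0.63 ± 0.95, adjusted p = 0.647) and RT1-N2 (0.24 ± 0.64, adjusted p = 0.802). The 5 tested CE rows and RT1-N2 had the widest errors of the tested heavy chain rows, and none of these 6 was called. Without NMDA 4, RT1-CE15 was -0.59 (adjusted p = 0.635), RT1-CE14 was -0.54 (adjusted p = 0.649) and RT1-CE11 was 0.90 (adjusted p = 0.307). Without PBS 5, RT1-CE14 was -0.13 (adjusted p = 0.921) and RT1-N2 was 0.08 (adjusted p = 0.942).

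RT1-M1-4 was close to 0 in 10 libraries, with 0 to 4 counts, and had 365 counts in NMDA 3 and 202 counts in PBS 5. These correspond to 10.6 and 8.01 CPM. It was not tested, since the filter asks for counts in at least 6 libraries. RT1-M1-2 had 0 to 18 counts per library, RT1-CE2 had 0 to 24, and each RT1-S2 row had 0 to 4. RT1-M6-2 and RT1-T18, a pseudogene in the table, had at most 1 count in a library, and RT1-M2 had 0 counts in all 12. A count of 0 allows up to 3 counts, which is 0.0871 to 0.186 CPM at these depths, and covers counting error only. RT1-DOa, a class II row, had 0 to 6 counts.

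Class II chain RNA rose for the classical chain genes RT1-Da, RT1-Db1 and RT1-Ba and for both DM genes. Summed over the 9 class II chain rows, it came to 43.1, 57.3 and 82.2 CPM in the lowest, median and highest NMDA library, against 11.7, 14.96 and 36.4 CPM with PBS. The groups did not overlap, PBS 5 being the nearest PBS library. The ratio of group means of that sum was 1.69 on the log2 scale, from 1.57 without NMDA 4 to 2.00 without PBS 5.

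Among the classical chain genes, RT1-Da (ENSRNOG00000032844, chromosome 20, 4512911 to 4518455), an alpha chain of the DR type, had 7.32, 12.5 and 16.5 CPM with NMDA, against 0.435, 0.914 and 9.40 CPM with PBS. PBS 5 alone brought the groups into overlap, since the next PBS library lay at 2.23 CPM. The log2 fold change was 2.32 ± 0.69 (adjusted p = 0.0200), and without PBS 5 it was 3.65 (adjusted p = 0.000102). RT1-Db1 (ENSRNOG00000033215, chromosome 20, 4548666 to 4558258), a beta chain, had 2.45, 3.20 and 11.8 CPM with NMDA, against 0.148, 0.503 and 2.30 CPM with PBS. The lowest NMDA library lay above PBS 5, the highest PBS library, and RT1-Db1 rose by 2.47 ± 0.66 (adjusted p = 0.0106). RT1-Db2 (ENSRNOG00000030431, chromosome 20, 4520713 to 4539705), which lies between those genes, had 3.40, 3.76 and 4.25 CPM with NMDA, against 3.29, 3.42 and 3.90 CPM with PBS. Its spread was narrow in both groups and its log2 fold change was 0.11 ± 0.10 (adjusted p = 0.408). Per length, the ratio of RT1-Db2 to RT1-Db1 FPKM was 0.61 to 3.09 with NMDA and 2.92 to 39.6 with PBS. Reads may be shared between these beta chain rows.

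RT1-Ba (ENSRNOG00000000451, chromosome 20, 4575134 to 4579744), an alpha chain of the DQ type, had 1.51, 4.37 and 13.2 CPM with NMDA, against 0.165, 0.403 and 2.58 CPM with PBS. NMDA 1 and NMDA 3 lay below PBS 5, and RT1-Ba rose by 2.60 ± 0.68 (adjusted p = 0.00985). Its beta chain gene RT1-Bb (ENSRNOG00000032708, chromosome 20, 4596559 to 4607597) had 1.83, 4.42 and 8.61 CPM with NMDA, against 0, 0.955 and 3.37 CPM with PBS. The difference of 1.90 ± 0.72 did not pass (adjusted p = 0.0561), and it passed in 7 of 21 alternatives, among them without PBS 5, at 2.57 (adjusted p = 0.0157). RT1-Ba was 2.06 without NMDA 4 (adjusted p = 0.0216) and 3.41 without PBS 5, and RT1-Db1 was 1.92 without NMDA 4 (adjusted p = 0.0233) and 3.16 without PBS 5.

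The DM molecule edits the peptides that class II molecules hold in the endosome, and DO restrains it. RT1-DMa (ENSRNOG00000066773, chromosome 20, 4707028 to 4710432) had 9.04, 13.0 and 17.7 CPM with NMDA, against 3.92, 4.37 and 7.70 CPM with PBS. It rose by 1.50 ± 0.20 on the log2 scale (adjusted p = 0.000167). RT1-DMb (ENSRNOG00000049491, chromosome 20, 4693103 to 4700340) had 10.8, 14.2 and 20.7 CPM with NMDA, against 2.59, 4.15 and 6.11 CPM with PBS, a log2 fold change of 1.86 ± 0.22 (adjusted p = 9.1e-05). In both DM genes the groups were apart, with PBS 5 the highest PBS library. The pair was close in level per length, with a DMa to DMb FPKM ratio of 0.615 to 0.976 with NMDA and 0.793 to 1.31 with PBS. RT1-DOb (ENSRNOG00000000454, chromosome 20, 4619816 to 4625667) had 0.147, 0.710 and 0.851 CPM with NMDA, against 0.396, 0.514 and 0.912 CPM with PBS. Its log2 fold change was 0.09 ± 0.36 (adjusted p = 0.882), at 4 to 24 counts per library. In FPKM, RT1-DOb averaged 0.171 ± 0.0817 with NMDA and 0.156 ± 0.0528 with PBS, and RT1-Da averaged 2.83 ± 0.904 with NMDA and 0.55 ± 0.804 with PBS (SD, n = 6 each). The promoters of both genes, printed above, hold X1 and Y matches.

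Cd74 (ENSRNOG00000018735, chromosome 18, 54256778 to 54266003) encodes the invariant chain, which fills the groove of new class II molecules and takes them to the endosome. It had 23.5, 40.2 and 48.7 CPM with NMDA, against 2.61, 4.83 and 20.1 CPM with PBS. The groups did not overlap, with PBS 5 closest at 20.1 CPM and the next PBS library at 7.12 CPM. The log2 fold change was 2.39 ± 0.45 (adjusted p = 0.00178), and without PBS 5 it was 3.04 (adjusted p = 4.06e-05). Per length, Cd74 averaged 11.99 ± 3.52 FPKM with NMDA and 2.22 ± 2.01 FPKM with PBS (SD, n = 6 each), whereas RT1-DMb averaged 8.73 ± 2.67 FPKM with NMDA and 2.31 ± 0.652 FPKM with PBS.

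**Figure D4:**
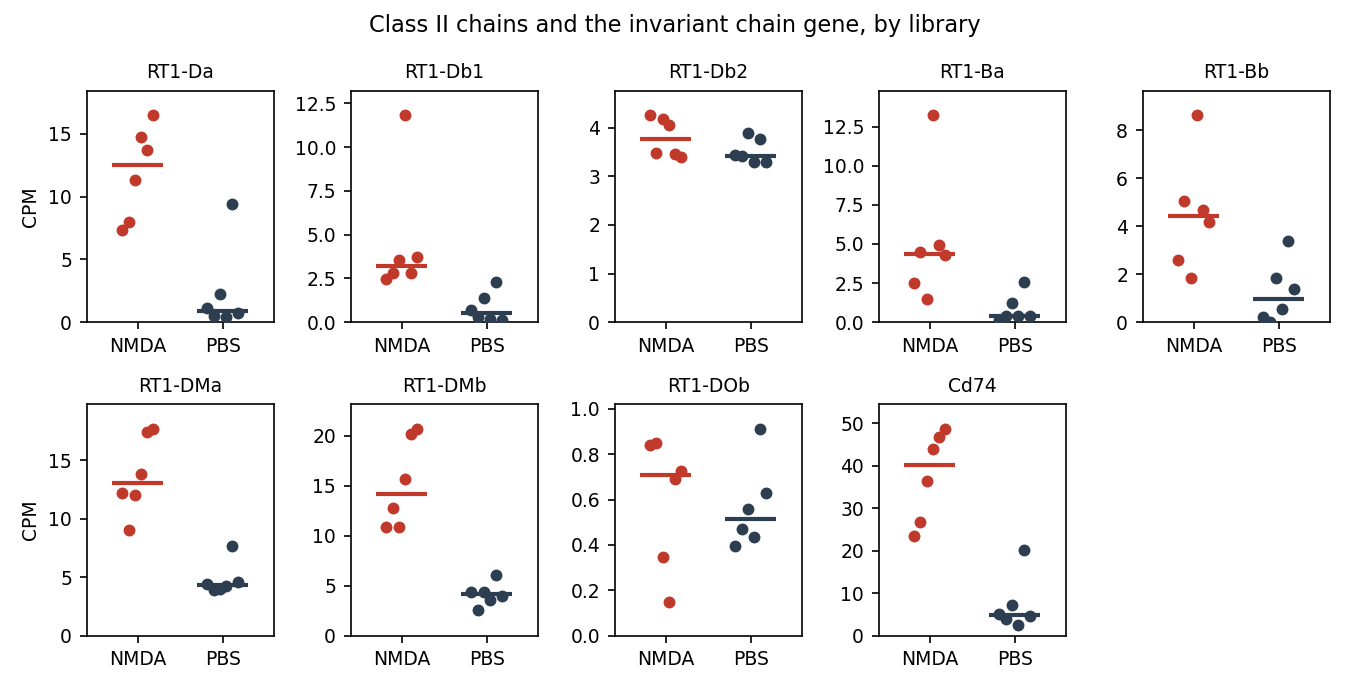
CPM of the 8 tested class II chain genes and of Cd74, one point per library, NMDA left and PBS right, lines at the group medians. PBS 5 is the high PBS point of RT1-Da (9.40), RT1-DMa (7.70) and Cd74 (20.1). NMDA 4 is the high NMDA point of RT1-Db1 (11.8) and RT1-Ba (13.2). RT1-Db1, RT1-DMa, RT1-DMb and Cd74 separate the groups, whereas RT1-Da, RT1-Db2, RT1-Ba, RT1-Bb and RT1-DOb overlap.

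Between NMDA and PBS, marker sums of other cell types rose, fell or overlapped, depending on the list. Of all genes tested, 20.4% rose and 17.5% fell, so that 37.9% were called. The called share of tested markers was near or below that 37.9% for microglia (44.4%), endothelium (42.9%), dendritic cells (33.3%) and astrocytes (25%). In bulk RNA, more or fewer cells of a type and more or less RNA per cell cannot be told apart. Rows near 0 with PBS passed the count filter mainly through their NMDA libraries, so their calls follow in part from the filter. Cd8a, Cd3e, Ccr7, Ccr2 and S100a9 were among these rows. The 13 macrophage and monocyte markers summed to 92.7 to 292.1 CPM with NMDA, against 16.0 to 54.0 CPM with PBS, and PBS 5 was the library at 54.0 CPM. Of the 12 tested, 11 rose (91.7%) and none fell, and none of the 13 was at 0 throughout. The 10 microglia markers summed to 137.6 to 184.6 CPM with NMDA, against 113.8 to 130.7 CPM with PBS, with 3 of 9 tested higher and 1 lower. The 10 dendritic cell markers summed to 248.9 to 300.4 CPM with NMDA, against 241.2 to 305.5 CPM with PBS, but most of that sum was Cadm1, which averaged 251 CPM with NMDA and 259.7 CPM with PBS and was not called. Of 6 tested, 2 rose, Itgax (4.29 to 14.1 CPM with NMDA, against 0.471 to 3.97 CPM with PBS) and Ccr7 (0.815 to 1.66 CPM with NMDA, against 0 to 0.198 CPM with PBS). Clec9a, too low to test, had 0.174 to 0.832 CPM with NMDA, against 0 to 0.0793 CPM with PBS, and Cd209 was at 0 in all libraries. The 8 B cell markers summed to 2.701 to 5.375 CPM with NMDA, against 2.274 to 3.65 CPM with PBS, and of 2 tested none rose and 1 fell. The 9 T cell markers summed to 3.37 to 9.28 CPM with NMDA, against 0.834 to 2.74 CPM with PBS, and 2 of 3 tested rose. Cd4 and Trac, also listed, matched no row by name. The 6 neutrophil markers summed to 4.83 to 50.98 CPM with NMDA, against 1.55 to 5.51 CPM with PBS, and all 3 tested rose. The 5 NK cell markers summed to 0.425 to 4.71 CPM with NMDA, against 0.132 to 0.436 CPM with PBS, and none had the counts to be tested. The 4 astrocyte markers summed to 309.1 to 790.9 CPM with NMDA, against 102.7 to 297.3 CPM with PBS, of which Gfap alone rose. Of 6 Müller glia markers 5 fell and Vim rose (sums of 3176 to 4064 CPM with NMDA, against 4218 to 5860 CPM with PBS). Of 5 pigment epithelium markers 3 fell (13.9 to 61.2 CPM with NMDA, against 65.1 to 106.5 CPM with PBS), and of 7 endothelium markers 3 rose (776.9 to 973.8 CPM with NMDA, against 705.8 to 812.8 CPM with PBS). No lens or blood marker was called, and their sums overlapped between the groups. Of 3 blood rows found, 2 were tested, and Hba-a1 and Hbb matched no row by name. Hba-a2, most of the blood sum, came to a log2 fold change of 0.50 ± 0.19 (adjusted p = 0.0534), close to the threshold. The part of these cells in the class I and class II results was not tested.

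Of the regulators, Nlrc5 and Ciita changed in opposite directions. Nlrc5 (ENSRNOG00000048222, chromosome 19, 10477628 to 10562121), the coactivator of class I, had 15.4, 20.9 and 37.9 CPM with NMDA, against 1.69, 3.12 and 8.01 CPM with PBS. The groups were apart, and Nlrc5 rose by 2.49 ± 0.37 on the log2 scale (adjusted p = 0.00039). Ciita (ENSRNOG00000002659, chromosome 10, 5140178 to 5187440), the coactivator of class II, had 12.5, 13.6 and 19.2 CPM with NMDA, against 18.6, 21.99 and 31.2 CPM with PBS. NMDA 4, at 19.2 CPM, was the only NMDA library within the PBS range. Ciita fell by 0.69 ± 0.16 on the log2 scale (adjusted p = 0.00405), while 5 class II chain genes and Cd74 rose. The ratio of Ciita to Cd74 in FPKM was 0.110 to 0.289 with NMDA and 0.616 to 2.95 with PBS. Counts per gene do not tell the promoters of Ciita apart.

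The RFX complex, which binds the X1 box and is made of RFX5, RFXAP and RFXANK, showed small differences, none of which passed in the edgeR test. Rfx5 had 53.4, 58.1 and 65.6 CPM with NMDA, against 59.7, 61.8 and 63.9 CPM with PBS (log2 fold change -0.07 ± 0.05, adjusted p = 0.363). Rfxap had 31.9, 33.8 and 34.8 CPM with NMDA, against 32.6, 34.3 and 36.9 CPM with PBS (-0.05 ± 0.04, adjusted p = 0.423). Rfxank had 12.6, 13.0 and 13.5 CPM with NMDA, against 11.4, 12.03 and 12.6 CPM with PBS (0.12 ± 0.05, adjusted p = 0.0811), and its row overlaps 8 others. It passed in 3 of 22 alternatives, with library size only and with limma on both FPKM scales. All 3 were spread narrowly over the libraries of a group.

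**Figure D5:**
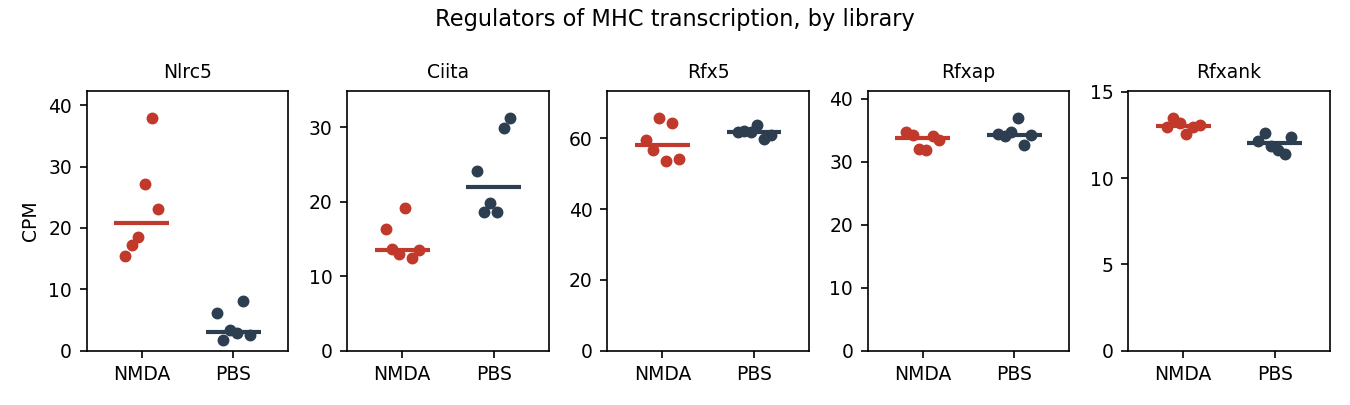
CPM of the 5 regulators of MHC transcription, one point per library, NMDA left and PBS right, lines at the group medians. Nlrc5 separates the groups with NMDA above (15.4 to 37.9 against 1.69 to 8.01), Ciita lies lower with NMDA with 1 library in the PBS range, and the RFX genes differ little.

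Other genes of the pathway were taken from 7 lists. Of 16 genes listed for class I peptide supply, 13 rose and none fell (81.2% higher, beside 20.4% of all tested genes). Their median log2 fold change was 0.56. The list includes general chaperone, folding and translocon genes (Canx, Hspa5, Pdia3, Uggt1, Sec61a1, Sec61b and Sec61g), whose role is not limited to class I. Psme1 and Psme2, subunits of a proteasome activator, rose by 1.20 ± 0.11 (adjusted p = 1.79e-05) and 0.67 ± 0.08 (adjusted p = 7.72e-05). Pdia3, an oxidoreductase of the loading complex, rose by 0.56 ± 0.06 (adjusted p = 6.8e-05) and Sec61b, a subunit of the translocon, by 0.66 ± 0.08 (adjusted p = 0.000124). Over the whole list, the lowest NMDA library exceeded the highest PBS library in 10 of 16 genes, an order found in 9.43% of all tested genes. Of 10 genes that supply peptides to class II or remove it from the surface, 5 rose (50% beside 20.4%) and 1 fell (median 0.28). Ifi30, the lysosomal thiol reductase, rose by 1.26 ± 0.14 (adjusted p = 6.95e-05). The protease genes Ctsz, Ctsl and Ctsb rose by 1.72 ± 0.27, 1.02 ± 0.18 and 0.54 ± 0.07 (adjusted p = 0.000489, 0.0011 and 0.000126). Marchf1, a ubiquitin ligase that removes class II from the surface, was the gene that fell, by 0.19 ± 0.07 (adjusted p = 0.0374), and was named after its value was seen.

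Interferon gamma is a known inducer of both classes. Ifng itself had 0 counts in all libraries, which allows a level of up to 0.0871 to 0.186 CPM, depending on the library. Of the 11 tested genes of its axis, 9 rose, or 81.8% beside 20.4% of all tested genes, and none fell (median 0.44). Irf8, a transcription factor of myeloid cells, rose by 1.61 ± 0.22 (adjusted p = 0.000217), and Irf1 by 0.63 ± 0.11 (adjusted p = 0.000626). Stat3 rose by 1.20 ± 0.17 (adjusted p = 0.000276) and Socs3, an inhibitor of cytokine signalling, by 2.82 ± 0.53 (adjusted p = 0.00172). Of 11 tested promoter partners, 4 rose and 1 fell (median 0.02), so that 45.5% were called, near the 37.9% of all tested genes. Nfyb, a subunit of NF-Y, which binds the Y box, fell by 0.39 ± 0.06 (adjusted p = 0.000351), with all NMDA libraries below all PBS libraries. Atf1 rose by 0.33 ± 0.06 (adjusted p = 0.000695) and Rela by 0.41 ± 0.07 (adjusted p = 0.000499). Nfkb1, at 0.21 ± 0.07 (adjusted p = 0.0295), was not called without any one of NMDA 3, NMDA 5, NMDA 6, PBS 1 or PBS 6, with adjusted p of up to 0.0685.

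Class I-like genes outside RT1 held 1 change among 5 tested, and that 20% higher is about the 20.4% of all tested genes. Procr, the endothelial protein C receptor, rose by 1.24 ± 0.30 (adjusted p = 0.00611). Fcgrt, the neonatal Fc receptor, came to 0.52 ± 0.20 (adjusted p = 0.0507, past the threshold in 10 of 22 alternatives), Cd1d1, which presents lipids, to 0.47 ± 0.19 (adjusted p = 0.0631) and Hfe to 0.31 ± 0.24 (adjusted p = 0.337). All 5 tested costimulation genes rose (100% beside 20.4%, median 1.19). The inhibitory ligand Vsir rose by 1.19 ± 0.16 (adjusted p = 0.000207), the checkpoint ligand Cd274 by 0.74 ± 0.18 (adjusted p = 0.00587), Cd276 by 1.01 ± 0.21 (adjusted p = 0.00238) and Cd86, the ligand of CD28, by 1.46 ± 0.35 (adjusted p = 0.00546).

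The last list held 9 receptor genes of T cells, NK cells and myeloid cells, most of them at low level. Not all of these receptors bind MHC molecules themselves. Of 6 tested, 4 rose (66.7% beside 20.4%, median 2.58). These 4, Cd8a, Lilrb4, Klrk1 and Cd3e, were low or near 0 with PBS. They passed the count filter mainly through their NMDA libraries, so this share follows in part from the filter. Cd4, Trac, Trbc1, Trbc2 and Pirb, also listed, matched no row by name. CD4 and the T cell receptor chains therefore have no value here. Cd8a, the coreceptor for class I on T cells, had 0.755, 2.55 and 4.79 CPM with NMDA, against 0, 0 and 0.278 CPM with PBS. The groups did not overlap, with a log2 fold change of 5.19 ± 0.80 (adjusted p = 0.000422) that was 6.50 without PBS 5. Cd8a averaged 2.63 CPM with NMDA, beside 0.518 CPM for Cd8b, too low to test, and 0.551 CPM for Cd3e. Which cells made the Cd8a RNA was not tested. Lilrb4, an inhibitory receptor of myeloid cells, had 2.30, 6.08 and 14.8 CPM with NMDA, against 0.185, 0.323 and 1.15 CPM with PBS, and rose by 4.13 ± 0.56 (adjusted p = 0.000229). Klrk1, an activating receptor of NK and CD8 T cells, had 0.354, 0.964 and 1.84 CPM with NMDA, against 0, 0.0803 and 0.436 CPM with PBS. It rose by 3.15 ± 0.68 (adjusted p = 0.00313), and by 4.19 without PBS 5. Cd3e, a chain of the T cell receptor complex, had 0.192, 0.473 and 1.08 CPM with NMDA, against 0.0330, 0.0577 and 0.516 CPM with PBS. It rose by 2.01 ± 0.63 (adjusted p = 0.0228), and by 3.20 without PBS 5, and was not called without any one of NMDA 6, PBS 1, PBS 2, PBS 4 or PBS 6 (adjusted p of up to 0.056).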

How the data were processed

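Total RNA of 12 rat retinas (6 NMDA, 6 PBS, 1 library per rat by the labels) was measured by sequencing. Counts were deposited as whole reads per gene, per the file headers and values, and FPKM values were deposited beside them by the authors, per the file headers. The submitters' processing notes name Bowtie2, RSEM 1.3.1 and DESeq2 1.4.5 but give no role for any of them. Since RSEM yields estimates that need not be whole, how the whole numbers arose is unknown. The build, strand setting and handling of reads that match several copies are not given in the sources used here, so values of single RT1 copies and of overlapping rows are uncertain.

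Counts of the 30560 rows were filtered with filterByExpr (count minimum 10, total minimum 15), which left 16260 genes. They were scaled by TMM (factors 0.976 to 1.03) and tested with the robust quasi-likelihood test of edgeR 4.0.16 in R 4.3.3 (two-sided, Benjamini-Hochberg over all genes, threshold 0.05). The group was the only term. CPM uses the TMM-scaled total. The SE of a log2 fold change was worked back from the test, as its size divided by the square root of the F statistic. Each adjusted p in the text comes from edgeR. Total counts of 16415611 to 34022023 limit the precision of rows with few counts, and the class sums per library got no test (summed copies entered a fit in 1 alternative alone).

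Members and lists were chosen with earlier results of these data known. Values are given for the 4 heavy chain genes of highest mean CPM, all tested class II chains and all tested members outside RT1. Heavy chain rows that were called are named, and of each other list up to 4 genes with the smallest adjusted p. RefSeq promoters (GRCr8) matched 34 of 41 member names. Those without an entry were Ciita, Erap1, Nlrc5, RT1-CE14, RT1-DMb, RT1-M1-4 and RT1-M2. Alternatives were other scalings, filters and tests (DESeq2 1.42.0, limma 3.58.1 on voom and on log2(FPKM + 1) or log2(FPKM + 0.1)), a replicate block, copies summed before the fit, and each library left out. No replicate pair agreed within sampling noise (lowest chi-square per degree of freedom 11.91).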

Additional observations from a re-analysis of the deposited data

Results flagged for a closer look

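In 12 of 72 groups of 6 libraries examined, the highest library stood so far from the next that the gap exceeded Dixon's critical share of the group's range. For independent, normally distributed values chance would flag about 1 group in 20; these rows share libraries and the rate here was not measured. NMDA 4 held 6 of these values and PBS 5 held 4.

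In NMDA 4, RT1-CE16 lay at 246 CPM with the next NMDA library at 61.8 CPM, RT1-Ba at 13.2 CPM with the next at 4.94 CPM, and RT1-Db1 at 11.8 CPM with the next at 3.71 CPM. RT1-CE14 lay at 9.9 CPM (next 3.72 CPM), RT1-CE15 at 6.4 CPM (next 1.19 CPM) and RT1-CE2 at 0.883 CPM (next 0.174 CPM). In PBS 5, Cd74 lay at 20.1 CPM with the next PBS library at 7.12 CPM, RT1-Da at 9.4 CPM with the next at 2.23 CPM, and RT1-DMa at 7.7 CPM with the next at 4.61 CPM. RT1-M1-4 lay at 8.01 CPM in PBS 5, with the next PBS library at 0.109 CPM, and at 10.6 CPM in NMDA 3, with the next NMDA library at 0.147 CPM. RT1-CE15 lay at 4.46 CPM in PBS 3, with the next PBS library at 0.834 CPM.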

How the results depend on the processing

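Of 23 alternatives, 22 gave a count of called members within 1.5 times the 19 reported, from 14 with near-identical copies summed (of 20 tested, 13 higher and 1 lower, RT1-M5 no longer being a row of its own) to 21 with library size only or with limma on either FPKM scale. The stricter filter of 10 CPM in 6 libraries gave 11, of 17 tested, since it leaves fewer genes tested. Leaving out 1 library gave 18 to 20. Of 33 tested members, 23 kept direction and call under every alternative run, and of 28 named pathway genes 24 did. The summed class I heavy chain level (log2 ratio of means) ran from 0.7365 to 1.144 and the summed class II chain level from 1.574 to 2 when 1 library was left out. The label numbers showed no clear pairing of the libraries. Correlations of same-numbered deviations ran from -0.172 to 0.191, and 2 of 6 exceeded 0.1. Those of different numbers ran from -0.328 to 0.352. Correlations over all genes cannot exclude a pairing. With the replicate block 17 members were called, and RT1-S3 (adjusted p = 0.0864) and RT1-T24-4 (adjusted p = 0.0575) were not.

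Signs turned in rows that were called in none of these fits, and the cause was not tested. RT1-DOb was -0.1304 with voom, and ran from -0.04159 to 0.2838 with 1 library left out, below 0 without NMDA 1, NMDA 2 or PBS 1. Rfxap was 0.004872 with library size only, 0.004694 on log2(FPKM + 1) and 0.004905 on log2(FPKM + 0.1). RT1-CE14 ran from -0.5355 to 0.3439 with 1 library left out, below 0 without NMDA 4, PBS 5 or PBS 6, and was -0.1042 without both PBS 5 and NMDA 3. RT1-CE15 ran from -0.588, without NMDA 4, to 1.788, and RT1-N2 was -0.1475 without both PBS 5 and NMDA 3. Depth limits rows such as RT1-DOb, with 4 to 24 counts per library.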
